A study of Mus musculus with 18 samples.

Results

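The BCL2 family genes described here are 10 genes of the mouse intrinsic apoptosis pathway: the anti-apoptotic Bcl2, Mcl1 and Bcl2l2, the effectors Bax and Bak1, and the BH3-only genes Bid, Bad, Bcl2l11 (BIM), Bbc3 (PUMA) and Pmaip1 (NOXA). They were taken by gene symbol from a table of nascent RNA counts, in which all 10 were found among 54232 gene identifiers. Newly made RNA was profiled with 4sU-seq: cells take up 4-thiouridine, a uridine analogue, build it into new transcripts, and those transcripts are then purified and sequenced. All libraries came from fetal livers of C57BL/6 mouse embryos at e12.5-e13.5, and every sorted population was kept 6 h in culture medium and then given 500 µM 4-thiouridine for 45 min. The paper's methods list this medium as IMDM with serum and β-mercaptoethanol and name no erythropoietin. Levels are thus those after this rest and not those of freshly sorted cells. The 5 lineage-negative populations were S0-Low (CD71-, Ter119-; stem and progenitor cells and BFU-E), S0-Medium (CD71 medium, Ter119-; early CFU-E), S1 (CD71 high, Ter119-; late CFU-E), S2 (CD71 high, Ter119 medium) and S3 (CD71 high, Ter119 high), with 3 replicates each, which the study calls biological. A sixth population, Lin+, also with 3 replicates, held the cells that carried antigens of other blood lineages. CD71 is the transferrin receptor and Ter119 an antigen of maturing red cells, so the 5 populations follow erythroid maturation. Each gate can hold more than 1 cell type, and the sources do not say how many embryos went into a library.

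BCL2 family proteins decide whether the outer mitochondrial membrane stays closed. BAX and BAK form the pores that let cytochrome c out and start the caspases; BCL2, MCL1, BCL-W (from Bcl2l2) and BCL-XL hold them back, and the BH3-only proteins are stress sensors that bind the guardians or activate the pore formers. In blood formation, MCL1 is needed by stem cells and early erythroid cells and BCL-XL by late erythroblasts, and erythropoietin is the main survival signal of the CFU-E.

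Promoter windows of 250 bases before the transcription start were read for 9 of the 10 genes from RefSeq (GRCm38.p6) on the sense strand. They are shown for the genes whose window held a searched motif other than CACCC and whose levels are compared below. Motifs were searched on both strands: GATAA (in 22.6% of 32851 windows of this length), CACCC (52%), TTCNNNGAA, the STAT5 motif (7.02%), GTAAACA, the FOXO motif (3.17%), CACGTG, the E-box (6.02%) and the p53 half-site (7.13%). Capitals mark the GTAAACA match in Bcl2l11 (chr2:128125788-128126037, + strand), its reverse complement in the second of 3 windows of Bbc3 (chr7:16310011-16310260, + strand), and a p53 half-site and an E-box, the latter nearest the start, in Bax (chr7:45466899-45467148, - strand).
Bcl2l11: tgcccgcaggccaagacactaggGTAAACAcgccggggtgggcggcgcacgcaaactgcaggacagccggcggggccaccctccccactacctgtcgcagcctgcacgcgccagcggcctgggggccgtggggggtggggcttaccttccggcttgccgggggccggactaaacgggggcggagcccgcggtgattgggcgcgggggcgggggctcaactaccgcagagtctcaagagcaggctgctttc
Bbc3: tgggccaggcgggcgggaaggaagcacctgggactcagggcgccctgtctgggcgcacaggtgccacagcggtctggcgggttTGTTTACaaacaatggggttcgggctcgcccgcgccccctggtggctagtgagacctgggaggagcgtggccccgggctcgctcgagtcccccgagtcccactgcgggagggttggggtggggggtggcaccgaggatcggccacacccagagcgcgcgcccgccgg
Bax: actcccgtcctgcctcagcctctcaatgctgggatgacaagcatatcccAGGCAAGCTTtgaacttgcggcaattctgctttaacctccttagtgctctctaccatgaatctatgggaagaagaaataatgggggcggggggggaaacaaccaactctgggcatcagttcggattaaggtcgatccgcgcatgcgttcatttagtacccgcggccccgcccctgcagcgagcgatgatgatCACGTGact
The third Bbc3 window, which overlaps the second, held 1 E-box. The windows of Bcl2, Mcl1, Bak1, Bid, Bad and Bcl2l2 held none of these motifs other than CACCC, and no member's window held GATAA or TTCNNNGAA. These matches describe letters in short windows and not binding.

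Library totals lay between 9452476 counts, in S0-Low replicate 3, and 40567976. Levels are given as CPM, counts scaled to 1000000 per library after TMM normalization, and differences as log2 fold changes from the quasi-likelihood test of edgeR, with p-values adjusted by Benjamini-Hochberg over every gene tested (16555 for the erythroid libraries, 17755 with Lin+), called at an adjusted p under 0.05. The p-values measure the spread between 3 libraries per population, estimated jointly over all populations in the fit and not only those compared. In sorted bulk cells, fewer cells making a transcript cannot be told apart from less of it per cell. Erythroid markers (6 genes) summed to a median of 615 CPM in S0-Low and 29450 CPM in S3. Stem and progenitor markers (5 genes) summed to a median of 1250 CPM in S0-Low, 2.106 CPM in S3 and 1262 CPM in Lin+. The Lin+ range of these sums (962.1 to 1478 CPM) overlapped that of S0-Low (936.3 to 1340 CPM). Markers of neutrophils and monocytes (7 genes) summed to between 432.6 and 773.4 CPM in S0-Low, to at most 1.083 CPM in S3 and to between 3414 and 5538 CPM in Lin+. The Lin+ libraries carry the same cell type label as the others, primary erythroblasts, but their erythroid markers summed to between 230.8 and 261.6 CPM, below each S0-Low library (396 CPM or more).

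Between S0-Low and S3, members were called in both directions, in numbers close to the shares over all genes. Of the 9 members that passed the filter on low counts, 2 were called higher in S3 (Mcl1 and Bbc3), where 13.4% of all genes tested were called higher, and 3 were called lower (Bcl2, Bid and Bak1), where 22.4% of all genes were called lower. Bax, Bad, Bcl2l11 and Pmaip1 were not called, and Bcl2l2 was not tested. The 9 tested members had a median log2 fold change of 0.01, beside -0.54 over all genes tested. That median depended on scaling: by library totals it was -1.36 over all genes, with 1156 genes called higher and 6228 lower in place of 2220 and 3712, and 0 members were then called higher and 3 lower. Taking a gene's change relative to the median of all genes removes the scaling of libraries, so TMM and totals give close values by construction. On that basis Mcl1 stood 1.44 higher in S3 by TMM and 1.43 by totals, and Bbc3 3.14 and 3.02 higher. This closeness does not bear on the calls lost by totals. The median also moved with the filter, to -0.10 with a minimum of 10 counts in each compared library, where Mcl1 was 0.61.

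**Figure D1:**
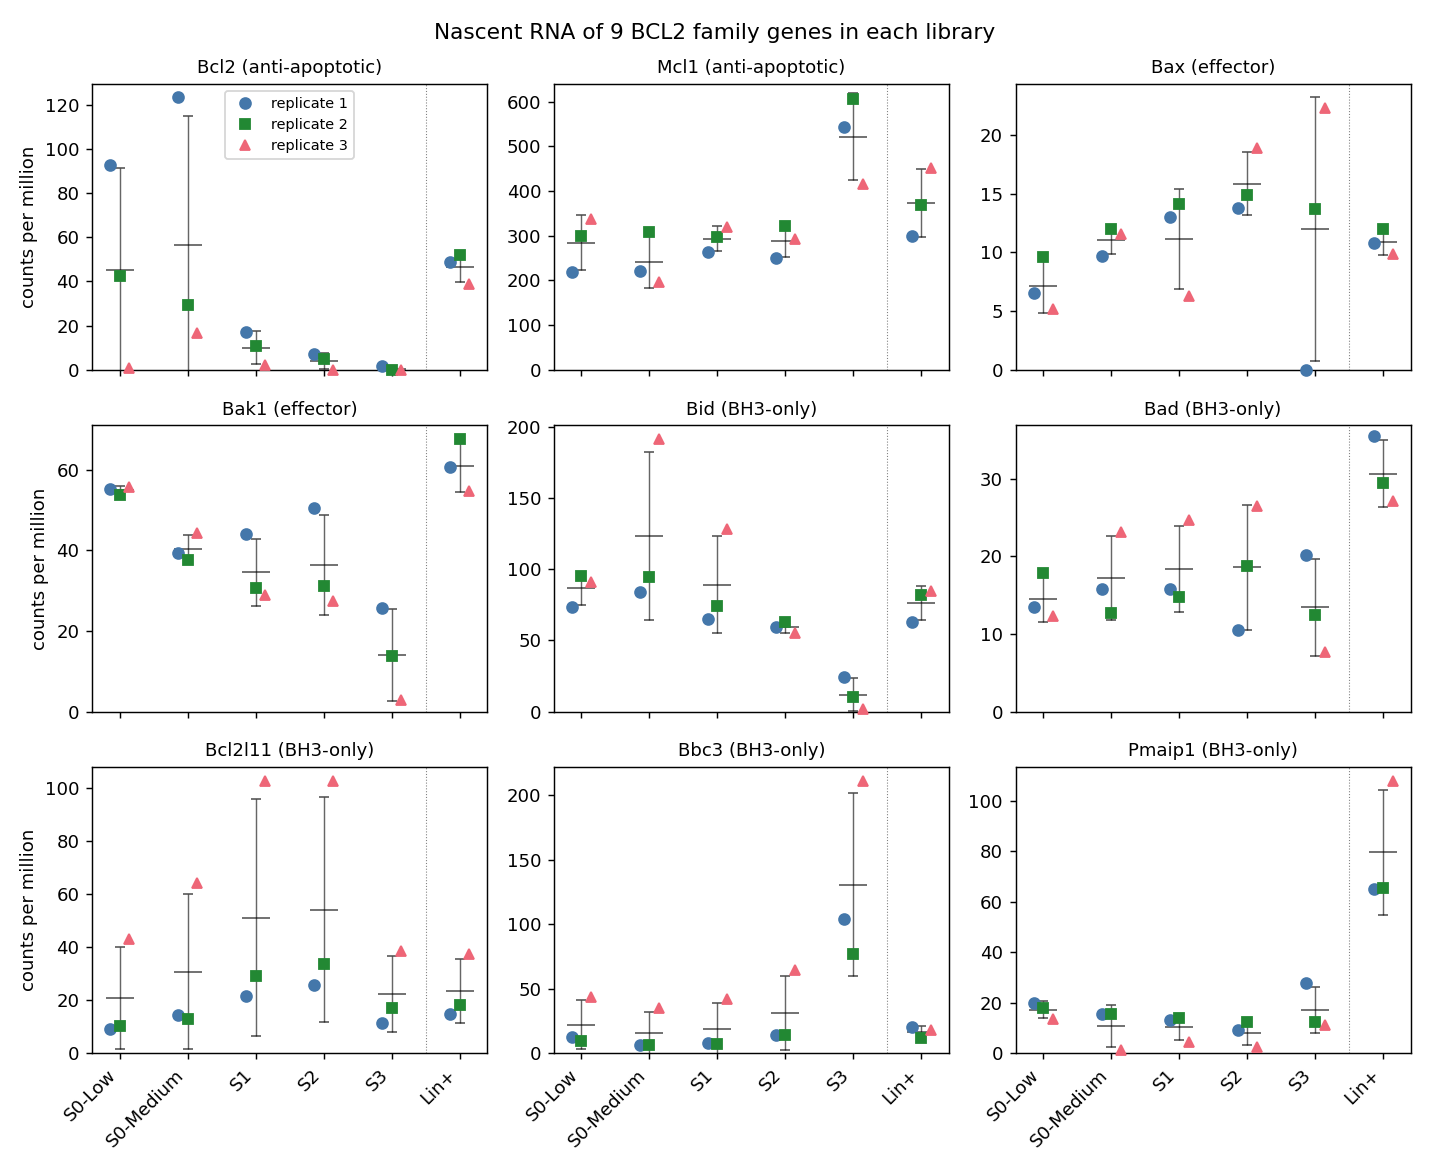
CPM (y axis, linear, TMM-scaled) of the 9 members with counts in each library of the 6 populations (x axis). Points are libraries, with the replicate shown by shape and colour; black bars are the mean ± SD of 3 replicates. Bcl2 runs down from S0-Medium to S3, by this scaling Mcl1 and Bbc3 are highest in S3, Bid and Bak1 are lowest there, and Pmaip1 is highest in Lin+.

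Bcl2, the founding survival gene of the family, lies on chromosome 1 (106538176 to 106714290; all positions are GRCm38.p6). Its level was 92.7, 42.6 and 0.587 CPM in replicates 1, 2 and 3 of S0-Low, 123, 29.4 and 16.7 CPM in S0-Medium, 17.2, 10.7 and 2.03 CPM in S1, and 6.99 and 4.69 CPM in replicates 1 and 2 of S2. In S2 replicate 3 it had 1 count, under the 3-count floor of 0.134 CPM. In S3 it was 1.53 CPM (21 counts) in replicate 1 and 0 counts in replicates 2 and 3, where the 3-count floor is 0.13 and 0.172 CPM. In replicates 1 and 2 the level fell at each step from S0-Medium on, and the S3 range overlapped the S0-Low range only through S0-Low replicate 3, which held 7 counts of Bcl2 in the shallowest library. The fall between S0-Low and S3 was 6.55 on the log2 scale in edgeR's fit (log2 fold change -6.55, SE 2.00, adjusted p = 0.0195). Without replicate 3 of every population, an alternative chosen after the data were seen, the log2 fold change was -6.58 (adjusted p = 0.00456). The call was lost without S0-Low replicate 1 (-5.52, adjusted p = 0.0532), S3 replicate 2 (-5.91, adjusted p = 0.0521) or S3 replicate 3 (-5.96, adjusted p = 0.0564), and in the fit of the 6 libraries alone (-6.62, adjusted p = 0.0603). Without S0-Low replicate 3 it was kept, at -7.21 (adjusted p = 0.00974). Without S3 replicate 1, when S3 had no Bcl2 count, the fitted value was -13.53, which depends on the prior count and is no bound. Of the Bcl2 exon bases, 7.76% overlap D630008O14Rik on the opposite strand, and the strand setting of the counting is not stated.

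Mcl1, a short-lived survival protein's gene on chromosome 3 (95656944 to 95663179), had the highest mean nascent level per kilobase of exon of the members in all 6 populations. Its level was 218, 299 and 337 CPM in S0-Low, 220.1, 309.5 and 196 CPM in S0-Medium, 264, 297 and 319.7 CPM in S1 and 250.3, 321 and 293 CPM in S2. In S3 it was 545, 605 and 415 CPM. The 4 earlier populations overlapped one another, and after TMM scaling each S3 library lay above each of the 12 earlier ones. By library totals they overlapped, with Mcl1 at 417, 427 and 242 CPM in S3 and 248, 364 and 425 CPM in S0-Low. The rise from S0-Low to S3 was 0.90 on the log2 scale (SE 0.28, edgeR adjusted p = 0.0202), from a mean of 285 ± 60.9 to 522 ± 97 CPM (SD, n = 3). It was not called with library totals (log2 fold change 0.07, adjusted p = 0.874), with no filter on low counts (0.84, adjusted p = 0.0861), with a minimum of 10 counts in each compared library (0.61, adjusted p = 0.0818), with the 6 libraries alone (0.71, adjusted p = 0.136) or, in leave-one-out fits, without S0-Low replicate 1 (0.68, adjusted p = 0.114), S0-Low replicate 2 (0.87, adjusted p = 0.0636) or S3 replicate 2 (0.77, adjusted p = 0.0698).

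Bcl2l2, which encodes BCL-W (chromosome 14, 54883366 to 54890858), is listed at 0 counts in all 18 libraries. Its neighbour Pabpn1, which encodes a poly(A)-binding protein used in most cells, is listed at no more than 19 counts in any library. The readthrough gene Gm20521, which shares 13.3% of the Bcl2l2 exon bases on the same strand, had 0 to 296 counts. The part of the overlap in the counts of 0 was not tested, and no level is given for Bcl2l2.

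The mix of survival genes was read within each library. Of the counts per kilobase of exon of Bcl2 and Mcl1, Bcl2 held 17.1, 6.45 and 0.0844% in S0-Low and 0.136, 0 and 0% in S3, so S0-Low replicate 3 was already below S3 replicate 1. The count of Mcl1 was 2.35, 7.03 and 574 times that of Bcl2 in the 3 S0-Low libraries. In S3 it was 357 times in replicate 1 and at least 4659 and 2422 times in replicates 2 and 3, against the floor of 3 counts. Bcl2l1, which encodes BCL-XL and is not among the 10, was 109, 76.1 and 57.3 CPM in S0-Low, 105, 85.1 and 166 CPM in S2 and 1164, 1865 and 2284 CPM in S3. It rose by 4.46 on the log2 scale between S0-Low and S3 (SE 0.44, edgeR adjusted p = 6.41e-06) and by 3.93 between S2 and S3 (SE 0.43, adjusted p = 0.000175), and each S3 library lay far above all others. Of the per-kilobase counts of Bcl2, Mcl1 and Bcl2l1 together, Bcl2l1 held 16.5 ± 6.26% in S0-Low, 23.0 ± 6.62% in S2 and 70.2 ± 9.57% in S3 (SD, n = 3), while Mcl1 held 77.3 ± 12.8%, 76.5 ± 6.36% and 29.8 ± 9.54%.

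**Figure D2:**
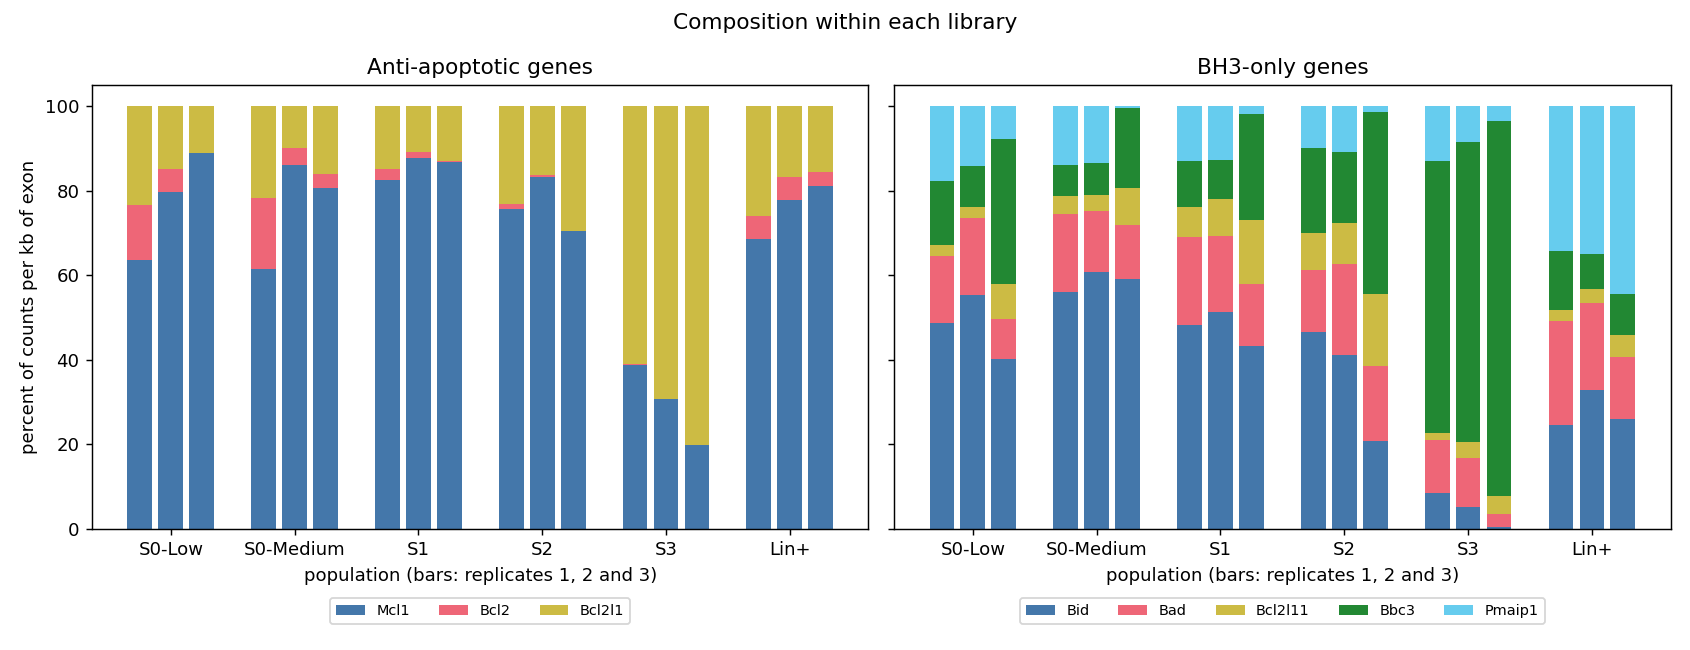
Percent of counts per kilobase of exon (y axis, from 0 to 100) that each gene holds within its group in each library; bars are replicates 1, 2 and 3 of each population (x axis). Left, Mcl1, Bcl2 and Bcl2l1: Bcl2l1 holds over 61% of each S3 bar. Right, the 5 BH3-only members: Bid is the largest part of each S0-Medium bar (55.9% or more), Bbc3 of each S3 bar (64.3% or more) and Pmaip1 of each Lin+ bar (34.3% or more).

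Of the effectors, Bak1 fell and Bax was not called. Bak1 (chromosome 17, 27019812 to 27028627) was 55.3, 53.7 and 55.7 CPM in S0-Low, 39.3, 37.5 and 44.3 CPM in S0-Medium, 44.0, 30.6 and 28.9 CPM in S1, 50.4, 31.3 and 27.4 CPM in S2 and 25.6, 13.8 and 2.80 CPM in S3. Every S3 library was below every S2 and S0-Low library, and the S3 libraries spread over the widest range relative to their mean. The fall between S0-Low and S3 was 1.93 on the log2 scale (log2 fold change -1.93, SE 0.57, edgeR adjusted p = 0.017). It missed the threshold only in the fit of the 6 libraries alone (-2.10, adjusted p = 0.0765), and without S3 replicate 1 it was -2.71 (adjusted p = 0.00354). Ggnbp1 overlaps 14.8% of the Bak1 exon bases on the opposite strand.

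Bax (chromosome 7, 45461695 to 45466903) was at 5.202 to 9.65 CPM in S0-Low, 9.71 to 11.96 CPM in S0-Medium, 6.27 to 14.1 CPM in S1 and 13.8 to 18.9 CPM in S2. Its 3 S3 libraries stood apart from one another, with 0 counts in replicate 1 and 13.7 and 22.3 CPM in replicates 2 and 3. S3 replicate 1 was also the library with the fewest genes detected, 11481 against 16991 and 13363 in the other S3 libraries. The log2 fold change between S0-Low and S3 was 0.75 (95% interval -1.56 to 3.07, edgeR adjusted p = 0.609), and the interval is too wide to tell a fall from a rise. Per kilobase of exon, Bak1 held 81.2 ± 5.15% of the 2 effectors' counts in S0-Low and 55.2 ± 11.2% in S2 (SD, n = 3), and between 6.53 and 100% in S3.

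Among the BH3-only genes, Bid and Bbc3 moved in opposite directions. Bid, whose protein links death receptors to mitochondria after cleavage by caspase-8, lies on chromosome 6 (120893119 to 120917062). It was 73.2, 95.1 and 91.3 CPM in S0-Low, 84.2, 94.4 and 191 CPM in S0-Medium, 64.7, 74.4 and 128 CPM in S1 and 59.4, 63.2 and 55.0 CPM in S2. In S3 it was 24.3, 10.0 and 1.49 CPM, below each other library. The fall between S0-Low and S3 was 2.83 on the log2 scale (log2 fold change -2.83, SE 0.67, edgeR adjusted p = 0.0047), and it was called in all 14 alternative fits, with adjusted p between 2.08e-06 and 0.0355. Its size moved with the S3 libraries, to -3.88 without S3 replicate 1 and -2.31 without S3 replicate 3. Bcl2l13, which encodes a mitochondrial BCL2-like protein, overlaps 17.7% of the Bid exon bases on the opposite strand, and it was called higher in S3 (log2 fold change 1.74, SE 0.33, adjusted p = 0.000962).

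Bbc3, which encodes PUMA, a binder of all the survival proteins and a known target of p53 and FOXO3, lies on chromosome 7 (16308398 to 16318334). It was 12.8, 9.45 and 44.0 CPM in S0-Low, 6.21, 6.65 and 34.7 CPM in S0-Medium, 8.24, 7.45 and 41.9 CPM in S1 and 14.5, 14.5 and 64.5 CPM in S2. In S3 it was 104, 77.1 and 211 CPM, above every other library after TMM scaling, and replicate 3 was the highest in all 5 erythroid populations. The rise between S0-Low and S3 was 2.60 on the log2 scale (SE 0.92, edgeR adjusted p = 0.0383), or 5.92-fold between the group means of 22.1 ± 19.0 and 131 ± 70.8 CPM (SD, n = 3). Without replicate 3 of every population it was 3.04 (adjusted p = 0.00033). The call was lost with library totals (1.66, adjusted p = 0.143), with RLE factors (2.45, adjusted p = 0.0516), with a minimum of 10 counts in each compared library (2.31, adjusted p = 0.0607) and, in leave-one-out fits, without S0-Low replicate 1 (2.26, adjusted p = 0.127), S0-Low replicate 2 (2.17, adjusted p = 0.13), S3 replicate 1 (2.72, adjusted p = 0.054) or S3 replicate 3 (2.09, adjusted p = 0.119). Without S0-Low replicate 3 the rise was 3.50 (adjusted p = 0.0248). By library totals the ranges overlapped, with Bbc3 in S3 replicate 2 (54.4 CPM) below replicate 3 of S0-Low (55.4 CPM) and of S2 (56.9 CPM). Set against Mcl1 in the same library, Bbc3 stood at 0.0587, 0.0316 and 0.131 counts per Mcl1 count in S0-Low and at 0.191, 0.127 and 0.508 in S3. Set against Bcl2l1 it went the other way, from 0.118, 0.124 and 0.767 in S0-Low to 0.0892, 0.0414 and 0.0923 in S3. Each S3 ratio to Bcl2l1 was below all S0-Low ratios.

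Bcl2l11, which encodes BIM, the BH3-only protein that falls under erythropoietin signalling in red cell progenitors, lies on chromosome 2 (128126038 to 128162547). It was 9.15, 10.2 and 43.1 CPM in S0-Low, 14.6, 13.1 and 64.3 CPM in S0-Medium, 21.5, 29.3 and 103 CPM in S1, 25.7, 33.6 and 103 CPM in S2 and 11.3, 17.0 and 38.6 CPM in S3. Within each replicate number the level in S2 was above that in S0-Low and above that in S3, while the populations overlapped through replicate 3. The log2 fold change between S0-Low and S3 was 0.13 (95% interval -1.63 to 1.89, edgeR adjusted p = 0.917).

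Bad, whose protein is held inactive by phosphorylation under growth factor signalling, lies on chromosome 19 (6941861 to 6951905). It was at 12.2 to 17.9 CPM in S0-Low, at 10.4 to 26.5 CPM over the S0-Medium, S1 and S2 libraries and at 7.66 to 20.1 CPM in S3. The populations overlapped throughout, and the log2 fold change between S0-Low and S3 was -0.09 (95% interval -1.27 to 1.09, edgeR adjusted p = 0.914). Gpr137 overlaps 25.8% of its exon bases on the opposite strand.

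Pmaip1, which encodes NOXA, a selective partner of MCL1, lies on chromosome 18 (66458604 to 66465558). It was 19.9, 18.1 and 13.4 CPM in S0-Low, 15.7, 15.5 and 1.23 CPM in S0-Medium, 13.05, 13.9 and 4.34 CPM in S1, 9.33, 12.53 and 2.64 CPM in S2 and 27.7, 12.2 and 11.3 CPM in S3. Replicate 3 was the lowest in each of these populations, and the S3 and S0-Low ranges overlapped (log2 fold change 0.01, 95% interval -1.77 to 1.79, edgeR adjusted p = 0.994).

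**Figure D3:**
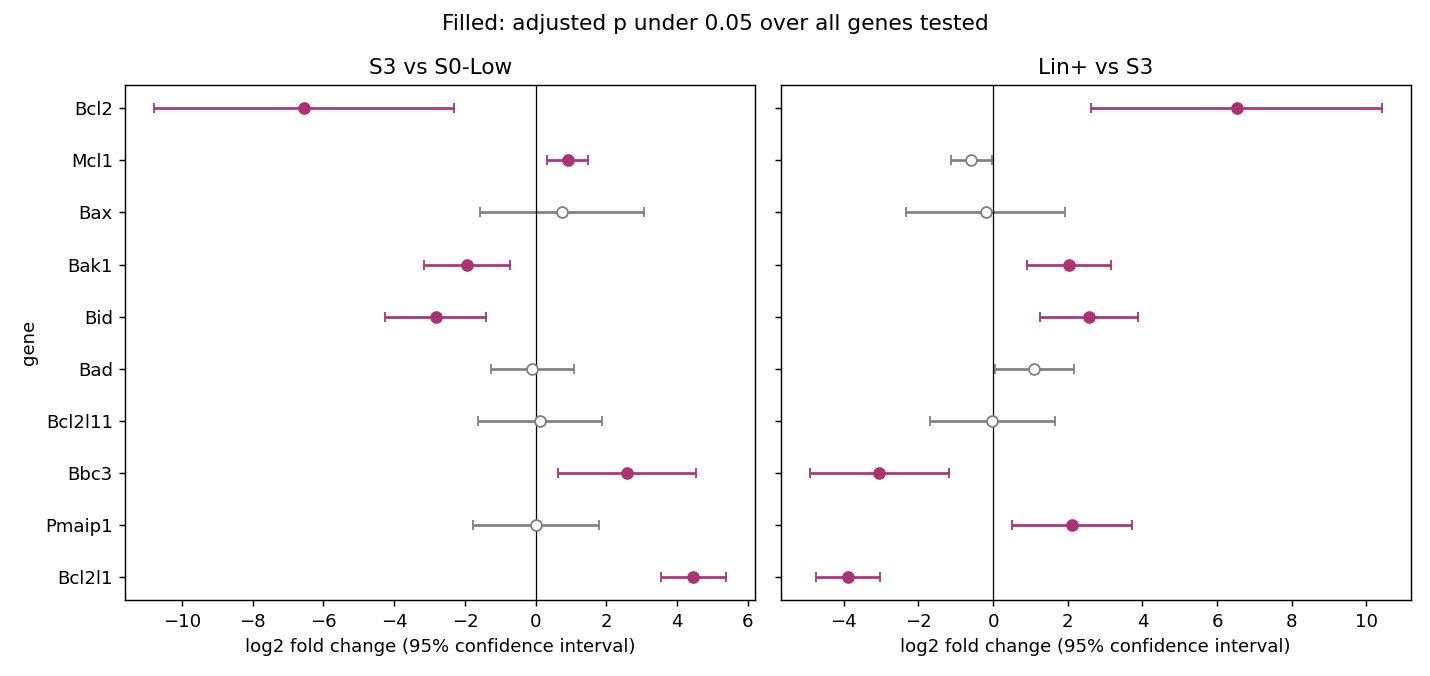
Log2 fold changes (x axis) of the 9 tested members and Bcl2l1 (y axis) in S3 against S0-Low and in Lin+ against S3, with 95% confidence intervals; filled points passed an adjusted p under 0.05. Both comparisons share the S3 libraries. Bcl2, Bak1 and Bid are lower in S3 in each, Bbc3 and Bcl2l1 higher, and Mcl1 is filled only in S3 against S0-Low.

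The members were also compared between neighbouring populations. In S0-Medium against S0-Low, S1 against S0-Medium and S2 against S1, 0 of 9 members were called, where edgeR called 0% of all genes at each step. None of the 9 had an unadjusted p under 0.05 at these 3 steps in edgeR, and 0 were called by DESeq2, which called 28 genes higher and 19 lower, 33 and 368, and 6 and 141 in turn. The member with the largest fitted change at any of them was Bcl2 from S0-Medium to S1 (log2 fold change -2.52, adjusted p = 1). From S2 to S3, Bid was called lower (log2 fold change -2.26, SE 0.66, adjusted p = 0.0417), 1 of 9 members where 6.09% of all genes were called lower, and 0 members were called higher where 3.26% of all genes were. In edgeR 4 members had an unadjusted p under 0.05 at this step, and DESeq2 called 2. By library totals this step had 288 genes called higher and 2264 lower in place of 540 and 1008. The call of Bid was lost without S2 replicate 1 (adjusted p = 0.0942), S2 replicate 2 (0.102) or S3 replicate 2 (0.0866), and in the fit of the 6 libraries alone (0.21), and without S3 replicate 1 it was -3.32 (adjusted p = 0.0103). With the replicate number as a block, S3 against S2 gave 2 members higher and 2 lower, where 7.3% and 11.3% of all genes were called higher and lower. These were Bbc3 (log2 fold change 2.41, adjusted p = 0.000319), Mcl1 (0.90, adjusted p = 0.0103), Bid (-2.29, adjusted p = 0.0304) and Bcl2l11 (-1.14, adjusted p = 0.0257). Without the block these log2 fold changes were 2.08 for Bbc3 (adjusted p = 0.154), 0.89 for Mcl1 (adjusted p = 0.0545) and -1.26 for Bcl2l11 (adjusted p = 0.353).

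The replicate number went with the level of 4 members across the erythroid libraries. Replicate 3 was set against replicates 1 and 2 of the 5 erythroid populations in a fit with population as a factor, a comparison chosen after the data were seen. Bbc3 (log2 difference 2.06, SE 0.21, edgeR adjusted p = 3.96e-05) and Bcl2l11 (1.93, SE 0.21, adjusted p = 5.21e-05) were higher in replicate 3, which was the highest of the 3 in 5 of 5 populations for both. Of all genes, 6.63% were called higher in replicate 3. Bcl2 (-3.82, SE 0.89, adjusted p = 0.0101) and Pmaip1 (-1.59, SE 0.50, adjusted p = 0.045) were lower, where 8.89% of all genes were, and replicate 3 was the lowest in 4 of 5 and 5 of 5 populations. The other 5 tested members were not called. The sources do not say what a replicate number stands for. In Lin+, which this fit did not use, Bcl2l11 was again highest in replicate 3, at 37.4 against 15.0 and 18.4 CPM. Bbc3 in Lin+ was 20.4, 11.8 and 17.9 CPM, with replicate 3 between the others, and Pmaip1 was highest in replicate 3, at 108 CPM.

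**Figure D4:**
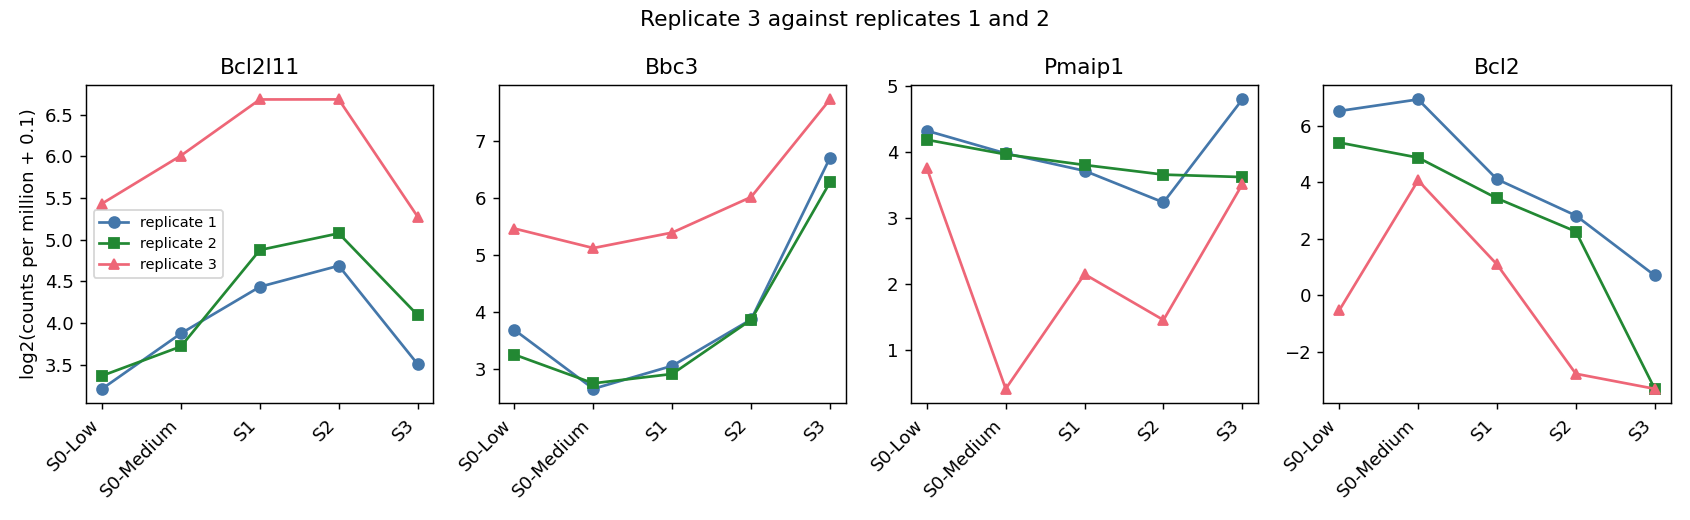
Log2 of CPM plus 0.1 (y axis) for Bcl2l11, Bbc3, Pmaip1 and Bcl2 through the 5 erythroid populations (x axis), with 1 line per replicate number. The replicate 3 line lies above the other lines for Bcl2l11 and Bbc3 and below them for Pmaip1, and for Bcl2 it lies below them up to S2 and at 0 counts in S3, where replicate 2 is also at 0.

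The Lin+ libraries were compared with both ends of the erythroid series. Against S0-Low, 0 of 9 members were called in either direction, where edgeR called 0.496% of all genes higher and 0.22% lower, 1 member had an unadjusted p under 0.05 and DESeq2 called 0. That member was Pmaip1, at 65.2, 65.4 and 108 CPM in Lin+. All 3 Lin+ libraries lay above all 15 erythroid ones, and the log2 fold change over S0-Low was 2.13 (SE 0.76, adjusted p = 0.277). In a fit of the 6 libraries alone the adjusted p was 0.00847. Bad was also above each S0-Low library, at 35.4, 29.4 and 27.1 CPM in Lin+ (log2 fold change 1.02, adjusted p = 0.546). Bcl2 was even across the Lin+ libraries, at 48.9, 52.1 and 38.8 CPM. In the same libraries Mcl1 was 299, 369 and 452 CPM, Bid 62.6, 82.1 and 84.6 CPM, Bak1 60.6, 67.7 and 54.7 CPM and Bax 10.8, 12.02 and 9.84 CPM. Per kilobase of exon the 2 effectors were in nearly the same proportion in each Lin+ library, with Bak1 between 75.6 and 75.8% of the sum.

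Against S3, 4 of 9 members were called higher in Lin+, where 28.2% of all genes were, and 1 lower, where 14.1% were. Bcl2 (log2 fold change 6.52, SE 1.85, edgeR adjusted p = 0.00959), Bid (2.58, SE 0.63, adjusted p = 0.00344), Bak1 (2.02, SE 0.53, adjusted p = 0.00611) and Pmaip1 (2.11, SE 0.76, adjusted p = 0.0336) were higher and did not overlap S3. Without S3 replicate 1 the values were 3.63 for Bid and 2.79 for Bak1, while for Bcl2 the remaining S3 libraries held no count and the fitted value is no bound. Without S3 replicate 3, Bcl2 was 5.93 higher (adjusted p = 0.0335). Bbc3 was lower in each Lin+ library than in each S3 library (log2 fold change -3.04, SE 0.89, adjusted p = 0.0115). The call of Pmaip1 was lost without any 1 of the 3 Lin+ libraries (adjusted p = 0.0531, 0.0535 and 0.0923 without replicates 1, 2 and 3), S3 replicate 2 (0.0832) or S3 replicate 3 (0.105). Bad was 1.11 higher (SE 0.51, adjusted p = 0.0863) and was called by DESeq2 (1.30, adjusted p = 0.00626), with RLE factors (1.30, adjusted p = 0.0428), with library totals (1.84, adjusted p = 0.0108) and with the 10-count minimum (1.48, adjusted p = 0.0114). With RLE factors or library totals 5 members were thus called higher in place of 4. Without S3 replicate 1 it was called by edgeR too (1.53, adjusted p = 0.0337). By library totals 7126 genes were called higher in Lin+ and 1338 lower, in place of 5005 and 2496.

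Per kilobase of exon, the order of the members shifted after Mcl1, which led in each population. In S0-Low, Bid (24.4 ± 3.29 CPM per kb) and Bak1 (22.8 ± 0.447) came next and did not differ beyond their spread, and the other 6 lay between 10.99 ± 9.48 (Bbc3) and 2.59 ± 2.41 (Bcl2l11). Neighbours among these 6 overlapped in their spreads, while Bad (7.23 ± 1.47) and Pmaip1 (6.49 ± 1.27) lay above Bcl2l11 by mean ± SD. In S2, Bid (16.7 ± 1.16), Bbc3 (15.5 ± 14.4) and Bak1 (15.1 ± 5.12) could not be ordered. In S3, Mcl1 (150 ± 27.8) and Bbc3 (65.1 ± 35.3) stood above the rest, which lay between 8.96 ± 8.40 (Bax) and 0.0707 ± 0.122 (Bcl2). In Lin+, Pmaip1 (30.1 ± 9.31), Bak1 (25.3 ± 2.71) and Bid (21.5 ± 3.40) came after Mcl1 (107 ± 22.0), with overlapping spreads (SD, n = 3 in each).

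The genes around the family were read from lists chosen by pathway. Of 14 other BCL2 family genes, 12 were found and 9 tested between S0-Low and S3: 2 were higher (Bcl2l1 and Bcl2l13), 3 lower and 4 not called, with a median log2 fold change of 0.28. As for the members, these counts stand beside 13.4% of all genes called higher and 22.4% lower, and a median of -0.54. Of the 3 that were lower, Bcl2l12 reached the count minimum for naming (-2.85, SE 1.06, edgeR adjusted p = 0.0466), and 29.0% of its exon bases overlap Gm15545 on the opposite strand. Its call was lost without S0-Low replicate 1 (adjusted p = 0.0584), S0-Low replicate 2 (0.0801), S0-Low replicate 3 (0.0793) or S3 replicate 3 (0.106), with the 6 libraries alone (0.155) and with replicates 1 and 2 alone (0.152), and the value was -4.04 without S3 replicate 2. Of 12 caspase pathway genes, all tested, 2 were higher, 2 lower and 8 not called (median 0.19), close to the shares of 13.4% and 22.4% over all genes. Birc5, survivin, an inhibitor of apoptosis that also serves in cell division, was 2.53 higher (SE 0.42, adjusted p = 0.000348), and Birc2, which encodes cIAP1, 1.07 higher (SE 0.33, adjusted p = 0.0209). The call of Birc2 was lost with library totals (0.17, adjusted p = 0.697) and without S0-Low replicate 1 (0.103), S0-Low replicate 2 (0.0986) or S3 replicate 3 (0.113), as with no filter (0.111), the 10-count minimum (0.0646) and the 6 libraries alone (0.142). Birc3, which encodes cIAP2, was lower (-3.64, SE 0.97, adjusted p = 0.00978; -5.13 without S3 replicate 3, and not called with the 6 libraries alone, adjusted p = 0.0721), as was the executioner caspase gene Casp6 (-2.06, SE 0.75, adjusted p = 0.0443). Casp6 was -1.16 without S0-Low replicate 3 (adjusted p = 0.214), and its call was also lost without S3 replicate 1 (0.0851), S3 replicate 2 (0.052) or S3 replicate 3 (0.114), with no filter (0.0721), with the 6 libraries alone (0.13) and with replicates 1 and 2 of every population (-0.92, adjusted p = 0.284).

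Of 9 death receptor genes, 1 was higher, 4 lower and 4 not called (median -1.42), beside 13.4% higher, 22.4% lower and a median of -0.54 over all genes. Casp8, the initiator caspase that cleaves BID, was 85.6, 84.2 and 108 CPM in S0-Low and 8.50, 19.6 and 23.6 CPM in S3 (-2.41, SE 0.42, edgeR adjusted p = 0.000491). Its inhibitor Cflar was also lower (-1.87, SE 0.52, adjusted p = 0.0118), but not without S0-Low replicate 3 (-1.14, adjusted p = 0.0792). Tnfrsf1a, the TNF receptor gene, was 48.2, 36.5 and 67.7 CPM in S0-Low and 0, 10 and 0 counts in S3 (-8.25, SE 1.41, adjusted p = 0.000455). The size rests on S3 replicate 2: without it S3 held no count and the fitted value was -13.63, which is no bound. The 4 lymphoid markers summed to between 89.5 and 171 CPM in S0-Low and to at most 0.303 CPM in S3, while the 4 megakaryocyte markers, at 32.9 to 139.5 CPM in S0-Low and 17.6 to 83.2 CPM in S3, overlapped. The part of these cell types in the falls was not tested.

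Of 10 genes of the p53 arm, 4 were higher, 0 lower and 6 not called (median 1.21), beside 13.4% higher, 22.4% lower and a median of -0.54 over all genes. Foxo3, a transcription factor gene, was 311, 226 and 627 CPM in S0-Low and 3569, 3285 and 3612 CPM in S3 (log2 fold change 3.20, SE 0.48, edgeR adjusted p = 0.00017). Sesn2, a stress gene that p53 and FOXO factors induce, was 4.73 higher (SE 0.75, adjusted p = 0.000251). Cdkn1a, the p21 gene, was 2.44 higher (SE 0.80, adjusted p = 0.0279), a call lost with library totals (1.67, adjusted p = 0.103) and without S0-Low replicate 1 (adjusted p = 0.086), S0-Low replicate 3 (0.0883), S3 replicate 1 (0.0724) or S3 replicate 2 (0.0691). Trp53 itself was not called (-0.09, SE 0.37, adjusted p = 0.869). Of 4 genes that control MCL1 turnover, March5, an E3 ligase of the mitochondrial membrane, was higher (2.55, SE 0.52, adjusted p = 0.00166) and 3 were not called (median 0.75). Of 5 tested VDAC and outer membrane genes, Vdac1 (-1.36, SE 0.40, adjusted p = 0.017) and Vdac2 (-0.90, SE 0.33, adjusted p = 0.0425), a partner of BAK, were lower, 0 were higher and 3 were not called (median -0.27). The counts of the MCL1 turnover and VDAC lists stand beside the same 13.4% higher, 22.4% lower and median of -0.54 over all genes. Vdac1 missed the threshold without S3 replicate 1 (-1.24, adjusted p = 0.0562) or S3 replicate 3 (-1.25, adjusted p = 0.0587), and Vdac2 without S0-Low replicate 1 (0.0575), S0-Low replicate 2 (0.0766), S3 replicate 2 (0.0738) or S3 replicate 3 (-0.63, adjusted p = 0.152), with no filter (0.0688), with the 6 libraries alone (0.0669) and with replicates 1 and 2 alone (0.0666).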

How the data were processed

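The authors made libraries from biotin-purified 4sU RNA with a stranded total RNA kit and PCR. The submitters' processing notes name kallisto 0.43.0 and the build GRCm38; the transcript set and the strand setting are not given in the sources used here. The deposited values are whole-number counts per gene, not normalized and not pooled; near-identical and overlapping genes can share them. Depth was 9452476 to 40567976 counts, so the floor of 3 counts was 0.0685 to 0.252 CPM after scaling, covering counting error only.

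Counts were analysed with edgeR 4.0.16 (filterByExpr, TMM, two-sided quasi-likelihood test) in R 4.3.3, with population as the only factor, over the 15 erythroid libraries (16555 genes) or all 18 (17755). DESeq2 1.42.0, RLE factors, library totals, other filters, the 6 compared libraries, the replicate number as a block and each replicate left out were alternatives. The common biological coefficient of variation was 0.795 and 0.771. The fit was tested on simulated data. Pairing was checked from the labels' numbers: same-numbered deviations correlated at 0.171 or more in S3 against S2 and at 0.191 or more in Lin+ against S0-Low, and at 0.257 or more at the earlier steps. They fell to 0.0813 in S3 against S0-Low and to 0.0886 in Lin+ against S3, where the block stands only among the alternatives. No pair of replicates agreed within sampling noise (chi-square per degree of freedom 89.4 or more).

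Exon lengths and overlaps came from GENCODE vM1, positions and promoters from RefSeq GRCm38.p6. The promoter of 1 gene was not used here. The members and lists were chosen with earlier results of these data known. All 10 members are named. Of other lists, at most the 3 largest called changes per direction in S3 against S0-Low with a mean of at least 100 scaled counts are named. Trp53, which was not called, is named outside this rule.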

Additional observations from a re-analysis of the deposited data

How the results depend on the processing

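The calls of 2 members higher and 3 lower in S3 against S0-Low moved with several choices. Members higher were 1 with RLE factors, 0 with library totals, 1 with no filter, 0 with a minimum of 10 counts per compared library and 1 with the 6 libraries alone. Members lower were 1 with the 6 libraries alone. Leaving out 1 library gave 0 to 2 higher and 2 to 3 lower. The replicate block kept 2 higher and 3 lower. In S3 against S2, members higher were 1 with RLE factors, 1 with no filter, 1 with DESeq2, 2 with the replicate block and 2 with replicates 1 and 2 alone, and members lower were 2 with no filter, 2 with the block and 0 with the 6 libraries alone. Leaving out 1 library gave 0 higher and 0 to 2 lower. In Lin+ against S0-Low, 1 member was higher with the 6 libraries alone. In Lin+ against S3, members lower were 2 with the replicate block and 2 with replicates 1 and 2 alone. Why these counts moved was not tested. The smaller fits and the stricter filter lose degrees of freedom or genes by construction, and the part of that loss was not tested either. The block changed no other count of member calls. All genes called higher and lower in S3 against S2 were 540 and 1008, and 1208 and 1866 with the replicate block, 1290 and 2042 with DESeq2, 75 and 23 with the 6 libraries alone, 1264 and 1995 with replicates 1 and 2 alone. In Lin+ against S0-Low they were 88 and 39, and 227 and 115 with the block, 483 and 135 with DESeq2, 520 and 53 with the 6 libraries alone.

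Of the log2 fold changes in S3 against S0-Low, 4 changed sign, none of them called. These were Bax, at 0.75 in the main fit with a wide interval, and Bad, Bcl2l11 and Pmaip1, which were near 0. Bax was -0.18 with library totals and -0.21 with replicates 1 and 2 alone, and -0.0386 to 1.33 with 1 library left out. Bad was -0.87 with library totals, 0.0802 with replicates 1 and 2 alone and -0.52 to 0.18 with 1 library left out. Bcl2l11 was -0.0296 with RLE factors, -0.84 with totals, -0.0325 with DESeq2, -0.16 with the 10-count minimum and -0.0936 with the 6 libraries alone, and -0.51 to 1.15 with 1 left out. Pmaip1 was -0.10 with RLE factors, -0.76 with totals, -0.0436 with no filter, -0.0689 with the replicate block, -0.10 with DESeq2, -0.25 with the 10-count minimum and -0.15 with the 6 libraries alone, and -0.55 to 0.24 with 1 left out. The 10-count minimum removed Bcl2 and Bax from the fit. Levels as CPM of the library total moved beyond 1 SD in 10 of 60 means. Without length correction the share of Bcl2 and Mcl1 moved beyond 1 SD in 6 of 12 means. The number of libraries, 3 per population, and 0 counts of Bcl2 in S3 set the limits.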
